A study of Mus musculus with 6 samples.

Results

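The 34 genes described here are genes that mark or serve retinal ganglion cells, the output neurons of the retina. They were chosen by name, with earlier results of these data known, and all 34 were found among the 13072 genes listed for whole mouse retina at postnatal day 7. All 34 also passed the filter on low values that left 12915 genes for testing, and none was listed at 0 in any library. The members are 13 transcription factors, 2 RNA-binding proteins, 2 abundant cytoplasmic proteins, 7 proteins of the axonal cytoskeleton, 5 of axon growth and adhesion, and 5 synaptic proteins or receptors.

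The libraries came from retinas of C57BL/6 mice, 3 from wild-type (WT) and 3 from CTGF-/- animals, which are deficient in connective tissue growth factor. The deletion was made with an inducible Cre/lox system. The labels do not state which promoter drives Cre, which agent induced it, which exons were deleted, or whether the WT animals carried Cre. Nothing says that the libraries of a group came from separate animals, so p-values here reflect library-to-library spread, part of which could be technical. Values are FPKM, fragments scaled to the length of the gene and to the mapped fragments of the library, as deposited. Differences are given as log2(FPKM + 1) in CTGF-/- minus WT, a scale that shrinks the changes of low genes, and were tested with limma with adjustment by Benjamini-Hochberg over all 12915 genes. The targeted gene, Ctgf, measured 0.932, 0.777 and 1.51 FPKM in WT replicates 1 to 3 and 0.587, 1.0 and 0.526 FPKM in CTGF-/- replicates 1 to 3. These groups overlapped (limma adjusted p = 0.571), and reads from undeleted exons would still be counted, so Ctgf gives no check of the labels.

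Retinal ganglion cells gather the signals of bipolar and amacrine cells and send them through the optic nerve to the brain. They are born before birth in the mouse from progenitors that pass through a phase of Atoh7 expression, and Pou4f2 and Isl1 then drive their differentiation. Their long axons need neurofilaments and microtubules, and after birth many ganglion cells die while the survivors depend on neurotrophins such as BDNF, which acts through the receptor encoded by Ntrk2. Ganglion cells are a small minority of retinal cells. Many of their genes are also active in amacrine, horizontal or other cells: 22 of the 34 members are of that broader kind, among them the neurofilament genes, Thy1, Tubb3 and Gap43, and 12 are closer to ganglion cells alone within the retina, among them Rbpms, Pou4f2, Sncg and Isl2. In bulk retina, fewer ganglion cells and less RNA per ganglion cell cannot be told apart.

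The ganglion cell genes were detected in every library, from a mean of 0.686 FPKM for Tbr1 to 179 FPKM for Tubb3. No member passed the adjusted threshold between CTGF-/- and WT in limma (smallest adjusted p = 0.533, Pou4f1), against 6 of all genes tested, or 0.0465%. At an unadjusted p under 0.05 there was 1 member, Pou4f1, or 2.94% of the members against 9.32% of all genes. The groups did not overlap for 1 member, Ntrk2, again 2.94% against 18.5% of all genes. So both shares were below the background.

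Of the members 23 had a lower mean of log2(FPKM + 1) in CTGF-/- and 11 a higher one. By the mean of FPKM itself 21 were lower, beside 55% of all genes, since Rbpms and Ina had a slightly higher mean FPKM and a log2 difference just below 0. The share lower on the log2 scale was 67.6%, beside 55.1% of all genes. The median difference of the members was −0.06 log2 units, beside −0.02 for all genes, and single members lay between −0.30 (Pou4f1) and 0.23 (Sncg). When libraries were rescaled to equal FPKM totals, 27 members were lower with a median of −0.13, beside 70.1% of all genes with a median of −0.09. When libraries were centred on their medians, 21 were lower with a median of −0.03. The 95% intervals of all 34 differences lay within 1 log2 unit of 0, those of 19 lay within 0.5, and 0 lay within 0.25.

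**Figure D1:**
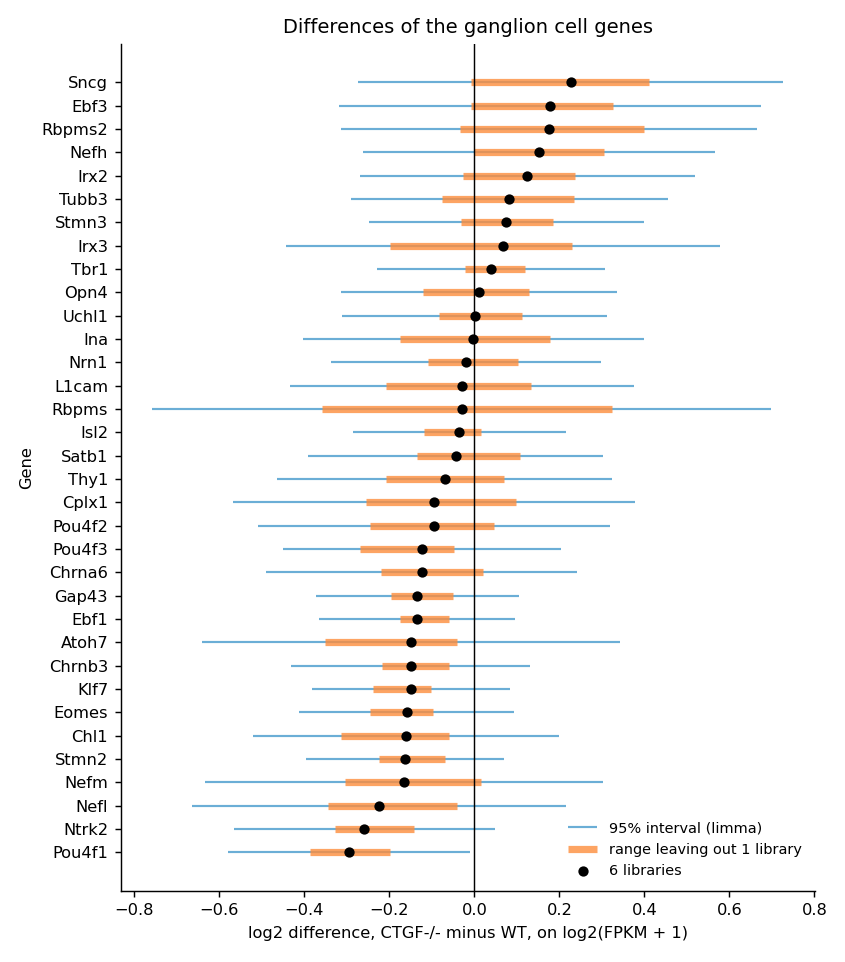
Difference of each ganglion cell gene between CTGF-/- and WT retinas in log2 units (horizontal axis), ordered by size. Points are the estimates from 6 libraries, thin lines the 95% intervals from limma and thick bars the range of the estimate when 1 library is left out. The interval of Pou4f1 alone does not cross 0, and the thick bars of many genes do.

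The members varied more between libraries than other genes did. The median residual standard deviation was 0.223 log2 units for the members and 0.140 for all genes. CTGF-/- replicate 1 was the lowest of the 6 libraries for 25 of 34 members, or 73.5%, where it was the lowest for 15.9% of all genes. At the top, CTGF-/- replicate 2 was the highest library for 13 members and WT replicate 3 for another 13, or 38.2% each, against 27.7% and 17.2% of all genes. WT replicate 1 and CTGF-/- replicate 1 were the highest library for no member.

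Averaged over the 34 genes, the level in a library relative to the WT mean was −0.11, 0.00 and 0.11 log2 units in WT replicates 1 to 3. In CTGF-/- replicates 1 to 3 it was −0.27, 0.17 and −0.04. The CTGF-/- group thus held both the lowest and the highest library, and its range spanned that of the WT group. The median of all genes stayed between −0.02 and 0.02 in every library. For 22 of the 34 members the range within CTGF-/- was wider than the range within WT.

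The direction of the list rested on single libraries. Without CTGF-/- replicate 1, 15 of 34 members were lower, with a median of 0.05, and without CTGF-/- replicate 2, 33 were lower, with a median of −0.18. Without WT replicate 3, 14 were lower, with a median of 0.02. Leaving out WT replicate 1, WT replicate 2 or CTGF-/- replicate 3 gave 26, 21 and 22 lower members, with medians of −0.11, −0.06 and −0.08. The 12 members that are closer to ganglion cells alone followed the same libraries, with levels of −0.11, −0.05 and 0.15 in WT and −0.30, 0.19 and 0.01 in CTGF-/-. Of these 12, 8 were lower, with a median of −0.03, and CTGF-/- replicate 1 was the lowest library for 10.

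**Figure D2:**
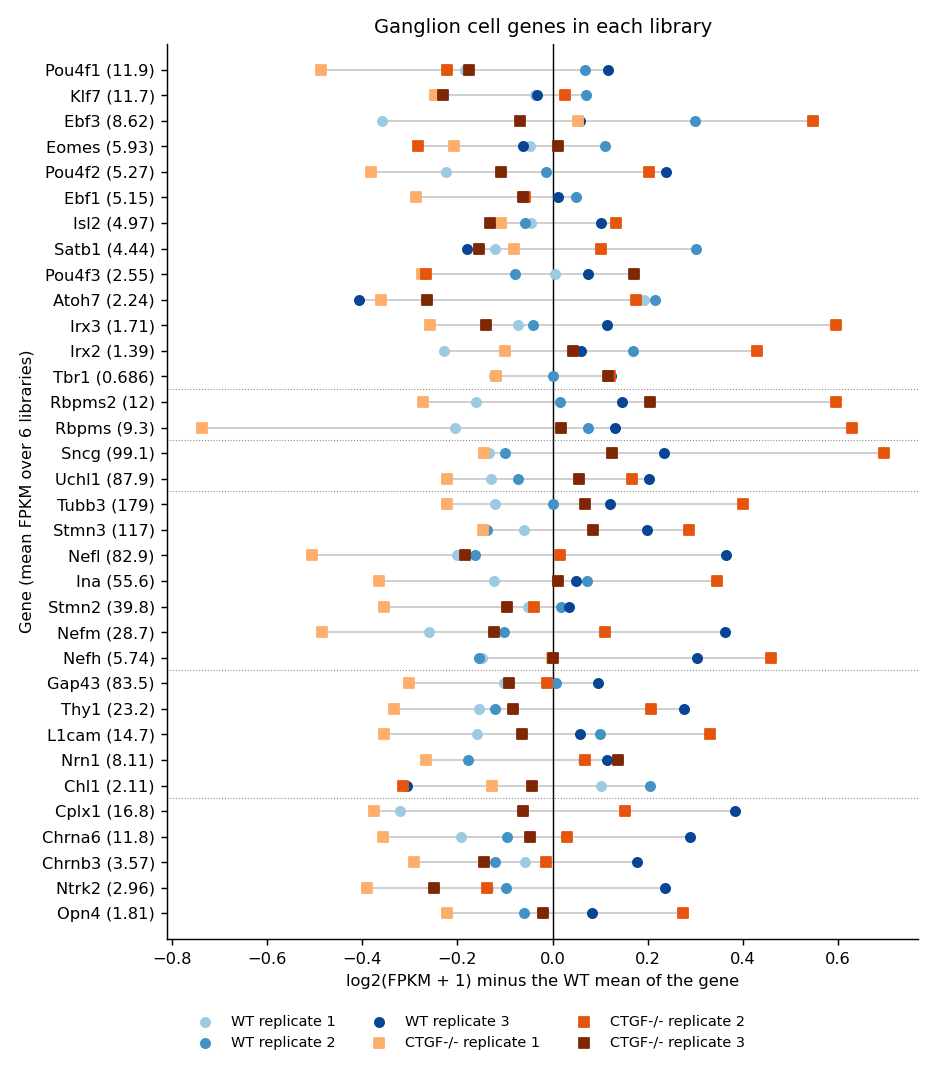
Value of each ganglion cell gene in each of the 6 libraries, as log2(FPKM + 1) less the average of the WT group (horizontal axis). Genes are grouped by role between the dotted lines, with the mean FPKM over the 6 libraries in brackets, circles are WT and squares CTGF-/-, and the palest square, CTGF-/- replicate 1, is the leftmost symbol for 25 of 34 genes.

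The base composition of the libraries moved with part of this pattern. For 12759 genes with a transcript in the annotation, the deviation from the gene's mean over all libraries was set against GC content. The GC content was that of the most abundant transcript. In CTGF-/- replicate 2 the deviation went with it (Spearman's rho 0.628 over genes, 0.7 over the 34 members). In the other libraries rho over all genes was between −0.5 and 0.00586. Because each gene is centred on all libraries, a trend in 1 library shifts the coefficients of the others. These coefficients are descriptions, since genes of 1 library are not independent. The median GC content was 53.8% for the members and 50.4% for all genes. In CTGF-/- replicate 2 the 17 members of higher GC content had a level of 0.33 log2 units and the 17 of lower GC content 0.01. In CTGF-/- replicate 1 the same sets were at −0.26 and −0.29. With the GC trend of each library removed, a step chosen after seeing the data, the members were at −0.10, −0.01 and 0.11 in WT and −0.26, 0.12 and −0.04 in CTGF-/-. CTGF-/- replicate 1 was then the lowest library for 24 members, against 16.8% of all genes, and 26 members were lower, with a median of −0.07 beside 0.00 for all genes.

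**Figure D3:**
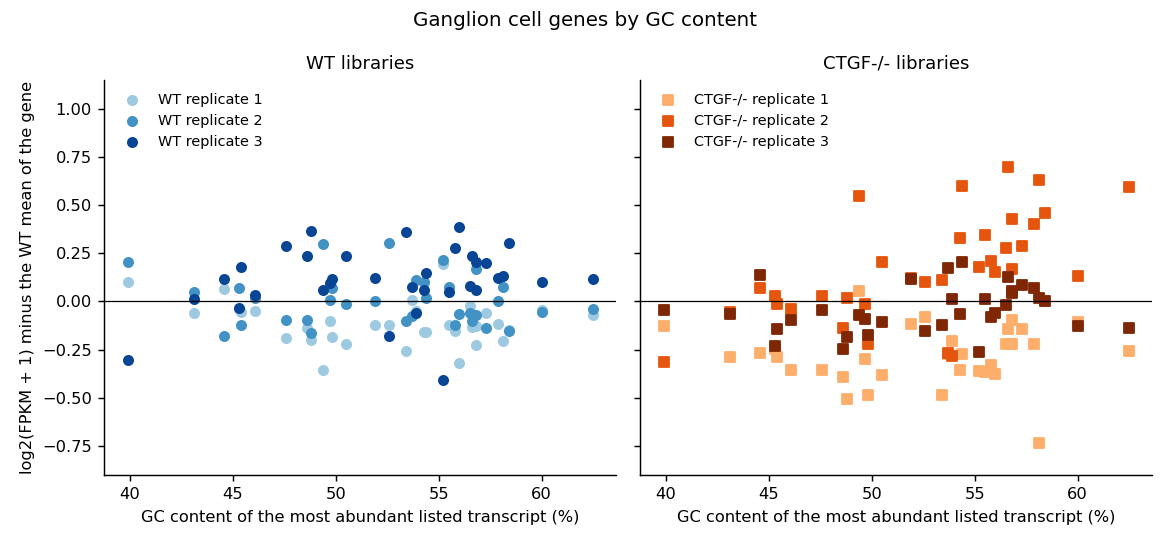
Deviation of each ganglion cell gene from its WT mean in log2 units (vertical axis) against the GC content of its most abundant listed transcript in percent (horizontal axis), with the WT libraries on the left and the CTGF-/- libraries on the right. Symbols of CTGF-/- replicate 2 stand higher at higher GC content, while those of CTGF-/- replicate 1 lie below 0 across the range for nearly every gene. For CTGF-/- replicate 2, Spearman's rho over 34 genes was 0.7, taken on deviations from the mean over all libraries.

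Among the transcription factors, 9 of 13 were lower and 4 higher, with a median of −0.10, and 0 passed the adjusted threshold in limma. The count of 9 was the same under both other scalings and was 7 to 13 when 1 library was left out. Pou4f1, a POU-domain factor of most ganglion cells and of sensory neurons, had the largest difference of the list. It measured 11.4, 13.8 and 14.3 FPKM in WT replicates 1 to 3 and 9.09, 11.1 and 11.5 FPKM in CTGF-/- replicates 1 to 3. The highest CTGF-/- library lay just above the lowest WT library, so the groups overlapped. Its means were 13.2 ± 1.54 and 10.6 ± 1.30 FPKM (SD, n = 3 each), a difference of −0.30 log2 units (SE 0.12, 95% interval −0.58 to −0.01). In limma this gave an unadjusted p of 0.0444 and an adjusted p of 0.533, and the difference was −0.39 to −0.20 when 1 library was left out. The unadjusted p in limma was 0.0529 with the GC trend removed, 0.068 with libraries centred on the median and 0.093 without variance moderation. It was 0.014 with equal FPKM totals and 0.0106 with a block for replicate number, at adjusted p of 0.417 and 0.512.

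The other POU factors had smaller differences than Pou4f1, but their intervals held its estimate of −0.30. Pou4f2 had the same lowest and highest library as Pou4f1. Pou4f2, which acts with Isl1 in ganglion cell differentiation, measured 4.49, 5.35 and 6.55 FPKM in WT and 3.92, 6.37 and 4.94 FPKM in CTGF-/-. Pou4f3, found in a smaller set of ganglion cells, measured 2.69, 2.48 and 2.87 FPKM in WT and 2.04, 2.06 and 3.14 FPKM in CTGF-/-. Their differences were −0.10 (95% interval −0.51 to 0.32) and −0.12 (−0.45 to 0.20) log2 units, and in both genes a CTGF-/- library exceeded the WT mean. Exon sequence of 75 bases shared with another gene was not found for Pou4f1, Pou4f2 or Pou4f3.

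Atoh7, the proneural factor of ganglion cell progenitors, was low at this age. It measured 2.83, 2.89 and 1.53 FPKM in WT and 1.61, 2.79 and 1.79 FPKM in CTGF-/-, so WT replicate 3 was its lowest library and the groups overlapped widely (limma difference −0.15, adjusted p = 0.786). Isl2, a LIM-homeodomain factor of ganglion cells that project across the midline, varied less than the POU factors. It measured 4.84, 4.80 and 5.47 FPKM in WT and 4.59, 5.62 and 4.51 FPKM in CTGF-/-, and its 95% interval ran from −0.29 to 0.22.

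Factors of single ganglion cell types went in both directions. Eomes, which marks the melanopsin-expressing ganglion cells and some others, measured 6.06, 6.87 and 5.99 FPKM in WT and 5.32, 5.0 and 6.35 FPKM in CTGF-/-. CTGF-/- replicate 2 was its lowest library, unlike for most members. Tbr1, a factor of another set of ganglion cells, measured 0.523, 0.659 and 0.805 FPKM in WT and 0.528, 0.804 and 0.796 FPKM in CTGF-/-, the lowest level of the list. Satb1, a chromatin organiser of direction-selective ganglion cells, measured 4.05, 5.76 and 3.84 FPKM in WT and 4.19, 4.89 and 3.93 FPKM in CTGF-/-. All values of its CTGF-/- group lay inside the WT range.

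The Iroquois genes Irx2 and Irx3 and the early B-cell factor gene Ebf3 had their highest value in CTGF-/- replicate 2. Irx3 measured 1.47, 1.52 and 1.81 FPKM in WT and 1.17, 2.93 and 1.36 FPKM in CTGF-/-, so both the highest and the lowest library were CTGF-/-. Its transcript had the highest GC content of the members, 62.5%. Irx2 measured 0.930, 1.54 and 1.36 FPKM in WT and 1.11, 2.05 and 1.33 FPKM in CTGF-/-. Ebf1, which with Ebf3 belongs to the factors active in differentiating ganglion cells, spread little: 5.16, 5.65 and 5.49 FPKM in WT and 4.27, 5.18 and 5.16 FPKM in CTGF-/- (difference −0.14, 95% interval −0.37 to 0.09). Klf7, a Krüppel-like factor that promotes axon growth, measured 12.0, 13.0 and 12.0 FPKM in WT and 10.2, 12.6 and 10.4 FPKM in CTGF-/- (difference −0.15, limma adjusted p = 0.595). Of the Klf7 exon bases 39.3% overlap Gm26649, a noncoding gene on the opposite strand.

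Ebf3 was listed with 3 transcripts, and they differed in how they were divided among the libraries. The gene measured 5.92, 9.92 and 8.24 FPKM in WT and 8.21, 12.0 and 7.46 FPKM in CTGF-/-. Ebf3-204, which encodes 587 residues, measured 3.58, 0.0308 and 1.88 FPKM in WT and 8.52, 10.3 and 3.84 FPKM in CTGF-/-. Every CTGF-/- library was above every WT library (limma difference 1.75, SE 0.62, unadjusted p = 0.0301, adjusted p = 0.819 over 25082 transcripts). Ebf3-201, which encodes 551 residues, measured 5.99, 17.0 and 11.2 FPKM in WT and 6.33, 11.4 and 8.57 FPKM in CTGF-/-, and its groups overlapped. The third, Ebf3-208, which encodes 596 residues, went the other way, with 1.97, 1.66 and 2.88 FPKM in WT and 0.462, 0.895 and 1.66 FPKM in CTGF-/-. Its groups did not overlap either, by 1.664 against 1.661 FPKM at the closest (limma difference −0.69, unadjusted p = 0.0545, adjusted p = 0.819). The coding sequences of Ebf3-201 and Ebf3-204 come from the same exon positions for their first 1534 and last 122 bases, and Ebf3-204 holds 108 bases between them that Ebf3-201 lacks. The coding stretch around that point is shown because it is where these 2 transcripts part. The sequences are from GENCODE M21 on GRCm38, minus strand, spliced (chr7:137198534-137199123 for Ebf3-201 and chr7:137198642-137199123 for Ebf3-204). The bases after the shared first 1534 are in capitals, of which the first is the same letter in both. The capitals of Ebf3-201 begin its last 122 bases, which Ebf3-204 also holds further on. Those of Ebf3-204 belong to the 108 bases that Ebf3-201 lacks.
Ebf3-201: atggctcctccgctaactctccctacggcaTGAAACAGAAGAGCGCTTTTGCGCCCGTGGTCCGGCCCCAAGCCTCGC
Ebf3-204: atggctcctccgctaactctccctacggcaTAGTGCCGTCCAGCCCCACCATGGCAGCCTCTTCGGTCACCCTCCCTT

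The RNA-binding protein genes Rbpms and Rbpms2, widely used pan-ganglion cell markers, differed widely between the CTGF-/- libraries. Rbpms measured 7.68, 9.53 and 9.96 FPKM in WT and 5.0, 14.5 and 9.14 FPKM in CTGF-/-. The highest library was 2.89 times the lowest, the widest ratio of the members, and both ends of that range were CTGF-/-. The group means were 9.06 ± 1.21 and 9.54 ± 4.75 FPKM (SD, n = 3 each), so the mean FPKM was slightly higher in CTGF-/- while the difference on the log2 scale was −0.03, with a 95% interval from −0.76 to 0.70. Without CTGF-/- replicate 1 the difference was 0.32, and without CTGF-/- replicate 2 it was −0.36. Rbpms2 measured 9.76, 11.2 and 12.3 FPKM in WT and 8.96, 17.2 and 12.9 FPKM in CTGF-/-, in the same order within each group as Rbpms. Its difference was 0.18 (95% interval −0.31 to 0.67), and 10.3% of its 75-base windows also occur in Gm3470, so its reads may be shared.

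The cytoplasmic proteins were among the most abundant members. Sncg, which encodes gamma-synuclein and labels most ganglion cells, measured 81.5, 83.4 and 105 FPKM in WT and 80.9, 146 and 97.7 FPKM in CTGF-/-. CTGF-/- replicate 2 stood apart from the other 5 libraries, while CTGF-/- replicate 1 lay beside WT replicates 1 and 2. The difference, 0.23 log2 units (SE 0.21, limma adjusted p = 0.682), was −0.01 without CTGF-/- replicate 2. Uchl1, a neuronal ubiquitin hydrolase gene, measured 79.7, 83.1 and 101 FPKM in WT and 74.8, 98.2 and 90.8 FPKM in CTGF-/-, with group means of 87.8 ± 11.2 and 87.9 ± 12.0 FPKM (SD, n = 3 each). Its 95% interval ran from −0.31 to 0.31.

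Of the 7 genes of the axonal cytoskeleton, 4 were lower and 3 higher, with a median of 0.00. The count of lower genes was 6 with equal FPKM totals, 3 with median centring and 2 to 6 when 1 library was left out. The median was 0.18 without CTGF-/- replicate 1 and −0.18 without CTGF-/- replicate 2. Nefl, the light neurofilament chain, measured 76.5, 78.6 and 114 FPKM in WT and 61.8, 89.2 and 77.4 FPKM in CTGF-/-. WT replicate 3 was its highest library and CTGF-/- replicate 1 its lowest, and the difference of −0.22 log2 units (95% interval −0.67 to 0.22, limma adjusted p = 0.650) was −0.04 without WT replicate 3. Nefm, the medium chain, measured 24.8, 27.9 and 38.8 FPKM in WT and 21.1, 32.4 and 27.4 FPKM in CTGF-/-, in the same order as Nefl. The ratio of Nefl to Nefm stayed between 2.75 and 3.08 in the 6 libraries.

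Nefl and Nefm lie on opposite strands of chromosome 14, and the listed Nefm gene (chr14:68082590-68124846, GRCm38) spans Nefl (chr14:68083863-68089095). They share 1108 exon bases, or 32.8% of the exon bases of Nefl and 19.2% of those of Nefm. The library kit keeps strand, but no source used here states whether the quantification used it. The transcript Nefm-201, which lies outside Nefl, measured 42.6, 47.9 and 66.7 FPKM in WT and 36.3, 55.1 and 47.3 FPKM in CTGF-/-. The libraries of Nefm-201 therefore stood in the same order as those of the gene, but in each library Nefm-201 was above the gene. Gene FPKM is thus not a sum over listed transcripts, and levels of different members, or ratios between them, may not compare amounts of RNA directly.

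The heavy chain shared its highest WT and highest CTGF-/- library with Nefl and Nefm, but not its lowest library. Nefh measured 4.69, 4.67 and 6.79 FPKM in WT and 5.31, 7.67 and 5.32 FPKM in CTGF-/- (difference 0.15, 95% interval −0.26 to 0.57). CTGF-/- replicate 1 lay above 2 of the WT libraries, where for Nefl and Nefm it was the lowest. Ina, alpha-internexin, which builds filaments with the neurofilament chains in young axons, measured 50.5, 58.0 and 57.0 FPKM in WT and 42.6, 70.2 and 55.5 FPKM in CTGF-/-. Its CTGF-/- libraries lay on both sides of all WT libraries.

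Tubb3, the neuronal class III beta-tubulin, was the most abundant member. It measured 158, 172 and 187 FPKM in WT and 147, 227 and 180 FPKM in CTGF-/- (difference 0.08, 95% interval −0.29 to 0.45). Stmn2 and Stmn3 encode stathmins, which regulate microtubules in growing axons. Stmn2 measured 40.5, 42.5 and 43.1 FPKM in WT and 32.7, 40.9 and 39.2 FPKM in CTGF-/-, and only CTGF-/- replicate 2 reached the WT range (difference −0.16, limma unadjusted p = 0.142). Stmn3 measured 108, 103 and 130 FPKM in WT and 102, 138 and 120 FPKM in CTGF-/-. It spanned the WT range on both sides.

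**Figure D4:**
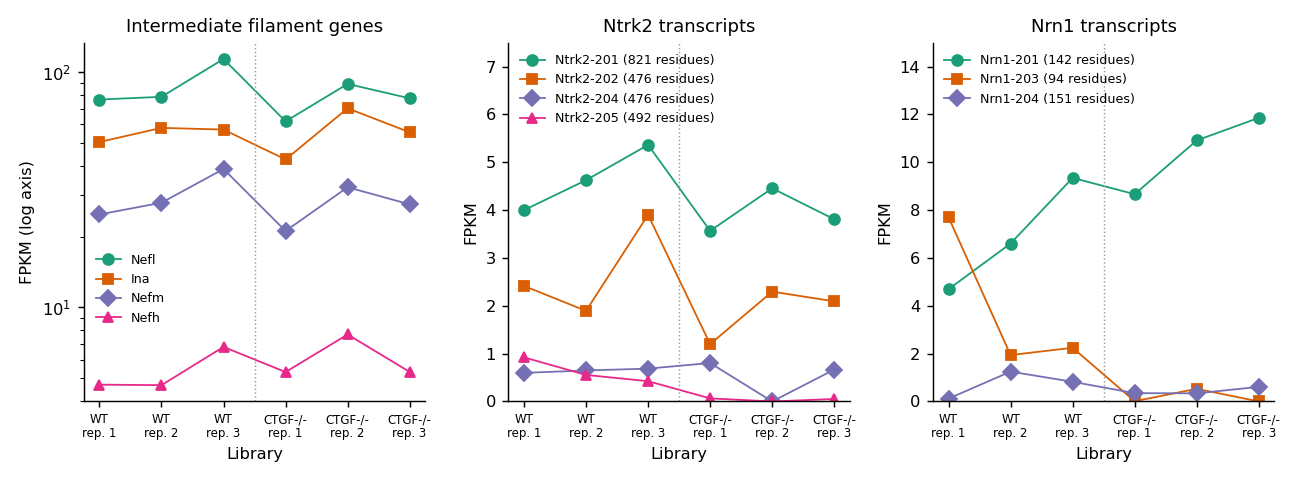
FPKM of the 4 intermediate filament genes (left, log axis), of the 4 listed Ntrk2 transcripts (middle) and of the 3 listed Nrn1 transcripts (right) in each library, with lines that join the symbols of a gene or transcript and imply no order. Nefl and Nefm vary together, Ntrk2-201 is the highest Ntrk2 transcript in every library, and Nrn1-203 is at or below 0.530 FPKM in the 3 CTGF-/- libraries and at or above 1.94 in WT.

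All 5 genes of axon growth and adhesion had a lower mean in CTGF-/-, with a median of −0.07, 4 of 5 with libraries centred on the median and 2 of 5 without CTGF-/- replicate 1. None passed the limma test, at an adjusted or an unadjusted p under 0.05. Gap43, the growth-cone phosphoprotein, measured 81.2, 87.6 and 93.2 FPKM in WT and 70.6, 86.5 and 81.8 FPKM in CTGF-/- (difference −0.13, 95% interval −0.37 to 0.10). Thy1, a membrane-anchored glycoprotein long used to isolate ganglion cells, measured 21.0, 21.5 and 28.7 FPKM in WT and 18.5, 27.3 and 22.1 FPKM in CTGF-/-. CTGF-/- replicate 1 was below every WT library in both genes, and the other CTGF-/- libraries lay within the WT range.

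L1cam, a cell adhesion molecule of fasciculating axons, measured 13.1, 15.8 and 15.3 FPKM in WT and 11.3, 18.7 and 14 FPKM in CTGF-/-. Its close homolog Chl1 showed another order of libraries, with 2.49, 2.75 and 1.63 FPKM in WT and 1.98, 1.62 and 2.16 FPKM in CTGF-/-. The Chl1 transcript had the lowest GC content of the members, 39.9%, and CTGF-/- replicate 2 was its lowest library. Their differences were −0.03 (95% interval −0.43 to 0.38) and −0.16 (−0.52 to 0.20).

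Nrn1 encodes neuritin, a small membrane-anchored protein that promotes neurite growth. The gene measured 8.53, 7.06 and 8.88 FPKM in WT and 6.58, 8.57 and 9.03 FPKM in CTGF-/-, a difference of −0.02 (95% interval −0.34 to 0.30). Its 3 listed transcripts were divided otherwise. Nrn1-203, which encodes 94 residues, measured 7.70, 1.94 and 2.25 FPKM in WT and 0.00965 and 0.530 FPKM in CTGF-/- replicates 1 and 2, and was listed at 0 in CTGF-/- replicate 3. Every WT library was above every CTGF-/- library (limma difference −1.92, SE 0.47, unadjusted p = 0.00642, adjusted p = 0.819), and WT replicate 1 stood far above the other WT libraries. Nrn1-201, the longer form of 142 residues, measured 4.69, 6.6 and 9.35 FPKM in WT and 8.66, 10.9 and 11.9 FPKM in CTGF-/- (limma difference 0.57, unadjusted p = 0.0598, adjusted p = 0.819).

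The summed Nrn1 transcripts were 11.6 ± 1.54 FPKM in WT and 11.1 ± 1.82 FPKM in CTGF-/- (SD, n = 3 each), so the sum differed by less than the spread between libraries. Of the Nrn1 exon bases 22.3% overlap Fars2 on the opposite strand. Nrn1-203 codes for the last 285 coding bases of Nrn1-201 and starts at an internal ATG, and its coding sequence has no base of its own. The stretch around that start is shown because the difference lies in what precedes it. The sequences are from GENCODE M21 on GRCm38, minus strand (chr13:36730133-36730222 for Nrn1-201 and chr13:36730133-36730162 for Nrn1-203), with the bases that are coding in Nrn1-201 alone in capitals.
Nrn1-201: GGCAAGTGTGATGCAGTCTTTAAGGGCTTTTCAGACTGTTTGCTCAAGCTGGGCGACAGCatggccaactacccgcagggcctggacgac
Nrn1-203: atggccaactacccgcagggcctggacgac

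Of the 5 synaptic and receptor genes 4 were lower in CTGF-/-, with a median of −0.12, and CTGF-/- replicate 1 was the lowest library for all 5. Without WT replicate 3, 2 of 5 were lower, with a median of 0.02. Ntrk2, the receptor for BDNF that ganglion cells, amacrine cells and Mueller glia express, measured 2.90, 3.01 and 4.05 FPKM in WT and 2.27, 2.90 and 2.61 FPKM in CTGF-/-. It was the only member whose groups did not overlap, by 2.904 against 2.901 FPKM at the closest. The means were 3.32 ± 0.635 and 2.60 ± 0.314 FPKM (SD, n = 3 each), with a difference of −0.26 log2 units (95% interval −0.57 to 0.05). It did not pass the limma test (unadjusted p = 0.0866, adjusted p = 0.553), and the difference was −0.33 to −0.14 when 1 library was left out.

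Ntrk2 gives rise to the full-length receptor, which carries the tyrosine kinase that signals survival, and to truncated forms without the kinase, which are common in glia. Ntrk2-201, the full-length form of 821 residues, measured 4.0, 4.63 and 5.36 FPKM in WT and 3.57, 4.46 and 3.81 FPKM in CTGF-/-. Ntrk2-202, a truncated form of 476 residues, measured 2.42, 1.89 and 3.90 FPKM in WT and 1.2, 2.30 and 2.09 FPKM in CTGF-/-. Both had overlapping groups, with limma differences of −0.19 (95% interval −0.59 to 0.21) and −0.37 (−1.06 to 0.31). The full-length form made up 50.4, 59.9 and 51.7% of the 4 listed Ntrk2 transcripts in WT and 63.3, 66 and 57.5% in CTGF-/-. These shares were 54.0 ± 5.15% and 62.3 ± 4.33% (SD, n = 3 each), and the groups overlapped.

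Both Ntrk2 coding sequences come from the same exon positions for their first 1393 bases, after which Ntrk2-201 goes on for 1073 bases and Ntrk2-202 for 38. The stretch around that point is shown because it is where the kinase form and the truncated form part. The sequences are from GENCODE M21 on GRCm38, plus strand, spliced (chr13:58878233-58985849 for Ntrk2-201 and chr13:58878233-58932060 for Ntrk2-202), with the bases after the shared exon positions in capitals, of which the first is the same letter in both.
Ntrk2-201: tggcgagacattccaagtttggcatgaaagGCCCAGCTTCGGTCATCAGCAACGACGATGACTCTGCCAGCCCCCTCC
Ntrk2-202: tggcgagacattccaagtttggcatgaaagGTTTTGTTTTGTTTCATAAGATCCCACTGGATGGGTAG

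The nicotinic receptor subunit genes Chrna6 and Chrnb3, neighbours on chromosome 8 whose products combine in ganglion cell receptors, varied together. Chrna6 measured 10.6, 11.4 and 15.1 FPKM in WT and 9.32, 12.5 and 11.8 FPKM in CTGF-/-. Chrnb3 measured 3.60, 3.41 and 4.42 FPKM in WT and 2.92, 3.74 and 3.33 FPKM in CTGF-/-. Their ratio stayed between 2.93 and 3.54 in the 6 libraries, and WT replicate 3 was the highest library for both. Their differences were −0.12 (95% interval −0.49 to 0.24) and −0.15 (−0.43 to 0.13).

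Cplx1, a complexin that clamps and primes vesicle fusion, measured 13.5, 16.3 and 22.7 FPKM in WT and 13.0, 19.2 and 16.4 FPKM in CTGF-/-. The WT range held all CTGF-/- libraries except replicate 1. Opn4, which encodes melanopsin, the photopigment of intrinsically photosensitive ganglion cells, measured 1.74, 1.67 and 1.95 FPKM in WT and 1.39, 2.37 and 1.75 FPKM in CTGF-/-. The Opn4 means were 1.79 ± 0.143 and 1.83 ± 0.497 FPKM (SD, n = 3 each), a difference of 0.01 with a 95% interval from −0.31 to 0.34.

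**Figure D5:**
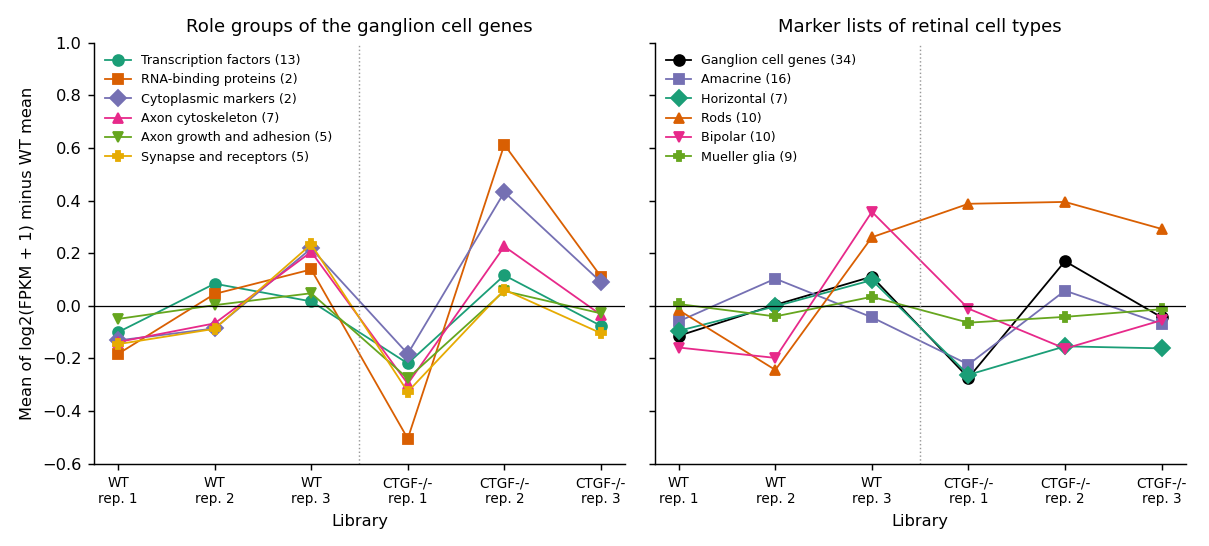
Mean over genes of log2(FPKM + 1) minus the WT mean (vertical axis) in each of the 6 libraries, for the 6 role groups of the ganglion cell genes (left) and for marker lists of retinal cell types (right), with the number of genes in brackets. Lines join the symbols of a list and imply no order. Every role group has its lowest level in CTGF-/- replicate 1, and the 34 ganglion cell genes reach −0.27 there and 0.17 in CTGF-/- replicate 2.

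Across the transcript table, 60 transcripts were listed for the 34 members, and 56 were tested. An unadjusted p under 0.05 in limma was reached by 2, Nrn1-203 and Ebf3-204, or 3.57% against 5.05% of all transcripts, and 0 passed the adjusted threshold, against 0.0239% of all. The groups did not overlap for 5 of the 56, beside 13.4% of all transcripts tested. Transcripts at 0 numbered 1875 in CTGF-/- replicate 2 and 716 to 861 in the other libraries, while among the members' transcripts 0 to 3 were at 0 in any library. Rbpms shows how unsettled such splits can be: Rbpms-201 measured 8.66 and 9.14 FPKM in WT replicates 1 and 3 and 3.18 FPKM in CTGF-/- replicate 1, and was listed at 0 in the other 3 libraries. For 19 members a single transcript was listed.

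Related gene lists that hold no member were counted in the same fit, and 0 genes of any of them passed the adjusted threshold. Of all genes tested 9.32% reached an unadjusted p under 0.05 in either direction and 5.49% with a lower value, 55.1% were lower by any size, or 70.1% with equal FPKM totals, and 18.5% had groups that did not overlap. The counts of the related lists were not tested against these shares. In the wider ganglion cell specification network 14 of 20 genes were lower, with 2 lower and 0 higher at an unadjusted p under 0.05. These were Elavl4, a neuronal RNA-binding protein gene, at 13.6, 14.3 and 11.3 FPKM in WT and 10.4, 11.1 and 9.80 FPKM in CTGF-/-, and Isl1, the LIM-homeodomain partner of Pou4f2, at 14, 11.9 and 20.2 FPKM in WT and 11.5, 9.36 and 10.6 FPKM in CTGF-/-. Both had groups that did not overlap (limma adjusted p = 0.533 each), and Isl1 is also expressed by bipolar and amacrine cells. With libraries centred on the median, 11 of the 20 genes were lower, and 10 to 17 when 1 library was left out.

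Of 17 further genes of ganglion cell types, 15 were lower, with 4 lower and 0 higher at an unadjusted p under 0.05. When 1 library was left out, 13 to 16 were lower. Their levels were −0.04, 0.004 and 0.03 log2 units in WT and −0.19, −0.19 and −0.11 in CTGF-/-, so CTGF-/- replicate 2 was not high for this list. The smallest p belonged to Zic1, a zinc finger factor, at 5.44 ± 1.14 FPKM in WT and 3.65 ± 0.246 FPKM in CTGF-/- (SD, n = 3 each, limma unadjusted p = 0.0111, adjusted p = 0.533). Of 20 genes of ganglion cell physiology, 15 were lower, with 5 lower and 0 higher at that threshold. Leaving out 1 library gave 13 to 15 lower. The levels of these genes were −0.06, −0.005 and 0.06 in WT and −0.18, −0.13 and −0.03 in CTGF-/-. Slc17a6, the vesicular glutamate transporter by which ganglion cells load their transmitter, measured 9.2 to 11.9 FPKM in WT and 6.56 to 8.71 FPKM in CTGF-/-, so every CTGF-/- library was below every WT library (limma adjusted p = 0.533). Scn1a, a voltage-gated sodium channel gene, measured 2.16, 2.38 and 2.12 FPKM in WT and 1.23, 0.918 and 1.87 FPKM in CTGF-/-, also without overlap.

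Of 25 further genes of axon cytoskeleton and growth 20 were lower, 17 with libraries centred on the median, 25 with equal FPKM totals and 16 to 25 when 1 library was left out. An unadjusted p under 0.05 was reached by 5, all lower, among them Map2, a dendritic microtubule protein gene, at 30.8 ± 4.33 and 24.1 ± 1.26 FPKM, and Kif5c, a kinesin motor gene of axonal transport, at 49.2 ± 3.83 and 40.5 ± 3.01 FPKM (SD, n = 3 each). Of 15 genes of neurotrophin signalling, 11 were lower, and 0 reached an unadjusted p under 0.05. Injury-response genes of ganglion cells were split, with 6 of 13 lower and 7 higher and 0 at an unadjusted p under 0.05. Sox11, which is in this list and in the specification list, measured 13.1 ± 3.04 and 10.9 ± 0.777 FPKM (SD, n = 3 each).

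Some marker lists of other cells shared part of the library pattern of the ganglion cell genes and others did not. The 16 amacrine markers that were listed had levels of −0.06, 0.10 and −0.04 log2 units in WT and −0.22, 0.06 and −0.07 in CTGF-/-, and the 7 horizontal cell markers −0.10, 0.00 and 0.10 in WT and −0.26, −0.15 and −0.16 in CTGF-/-. Like the ganglion cell genes, both were lowest in CTGF-/- replicate 1, but neither was highest in CTGF-/- replicate 2. The horizontal cell markers were below their WT mean in every CTGF-/- library. The summed FPKM of the amacrine and horizontal cell markers was 334 to 373 and 60.2 to 66.9 in WT and 295 to 371 and 55.9 to 58.2 in CTGF-/-. The mean level of the 9 Mueller glia markers that were listed stayed between −0.06 and 0.03 in every library, with 5 lower and 4 higher in CTGF-/-. An unadjusted p under 0.05 in limma was reached by 2 of them, Hes1 and Glul, both lower (adjusted p = 0.533 each). The 10 bipolar markers that were tested were at −0.16, −0.20 and 0.36 in WT and −0.01, −0.16 and −0.06 in CTGF-/-. Their lowest library was thus WT replicate 2. Rod markers went the other way, with 10 of 10 higher in CTGF-/- and summed FPKM of 1193 to 1612 in WT and 1621 to 1790 in CTGF-/-. Optic nerve cells were little represented: the oligodendrocyte genes Mag, Mobp, Mog, Olig1 and Sox10 have no row in the gene table, and 7 of 7 astrocyte markers summed to 25.2 to 31.3 FPKM in WT and 23.3 to 38.3 FPKM in CTGF-/-. Lens markers, 10 of 10 listed, summed to 3.94 to 360 FPKM in WT and 185 to 2951 FPKM in CTGF-/-. Erythroid markers, 5 of 6 listed, summed to 612 FPKM in WT replicate 3 and to 94.6 to 323 FPKM in the other libraries. The part of these cells in the values of the ganglion cell genes was not tested.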

How the data were processed

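Polyadenylated RNA of 6 retinal samples (3 WT, 3 CTGF-/-) was sequenced from both ends with a strand-specific kit, per the labels' protocols. Per the submitters' processing notes, FastQC, cutadapt, HISAT2 and StringTie were used with GRCm38, and the series' design text names Ballgown for FPKM. The authors deposited FPKM per gene (13072) and transcript (26721), and in every listed gene the higher group mean was at least 0.5 FPKM. Per the file headers the tables also hold columns of log2 fold changes, p-values and q-values, of which the deposited p-values and q-values were not used, and columns of group averages, which by their values are on the log2 scale. The tables give no counts, and low FPKM values showed no steps of whole reads, so the depth is unknown and no counting interval is given.

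From these values, log2(FPKM + 1) was fitted with limma 3.58.1 in R 4.3.3 (lmFit, eBayes with trend) where the average of the 6 libraries reached 0.5 FPKM, without covariates, and tested on simulated data. P-values were adjusted by Benjamini-Hochberg across all tested features, with a threshold of 0.05. A list's level averages log2(FPKM + 1), relative to WT, over the list. Gene IDs and coordinates of all 34 members matched GENCODE M21, which gave transcripts, GC content, overlaps and shared 75-base windows. Members and lists were chosen with earlier results of these data known. The text names every member, from other lists genes among the 3 smallest p or the most abundant, and the members' transcripts that were at p under 0.05, those of Ntrk2 and the most abundant. Ratios between members, Ebf3-208, Nrn1-204 and Rbpms-201 were chosen after values were seen. Alternatives were another pseudocount, filters, scalings, variance models, a replicate block, leaving out each library and, chosen after seeing the data, removal of each library's lowess trend on GC content.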

Additional observations from a re-analysis of the deposited data

How the results depend on the processing

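Under the 15 alternatives no member passed the adjusted threshold (smallest adjusted p = 0.417, Pou4f1 with equal FPKM totals). The count of members at an unadjusted p under 0.05, 1 in limma with 6 libraries, was 3 with equal FPKM totals, 0 with median centring, 0 without variance moderation, 0 with the GC trend removed and 0 to 3 when 1 library was left out. The count of lower members, 23, was 8 (of 12) without the broadly expressed members and 14 to 33 when 1 library was left out. Of the 34 members 22 changed sign under at least 1 alternative, and 12, among them Pou4f1, Ntrk2, Klf7, Gap43, Stmn2 and Nefl, changed sign under none. Genes at an unadjusted p under 0.05 (1204) numbered 598 to 1428 when 1 library was left out. Genes past the adjusted threshold (6) numbered 1 without moderation, 2 with the replicate block and 2 to 9 when 1 library was left out, and transcripts (6) numbered 2, 0 and 1 to 7. The causes of these changes were not tested. The labels do not say whether the replicate numbers pair the samples. Deviations from the group mean correlated at 0.0129, 0.171 and −0.156 between same-numbered libraries, and at −0.305 to 0.371 between the others. With 3 libraries a group, each centred on its group mean, these correlations cannot decide whether samples were paired. The replicate block in limma left the count of members at an unadjusted p under 0.05 at 1, with Pou4f1 at an adjusted p of 0.512. A pseudocount of 0.1 gave 23 lower members with a median of −0.06, and a minimum mean of 1 FPKM removed Tbr1. Depth could not be assessed, and 3 libraries a group limit all intervals.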

Other observations

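Ratios between members within a library, chosen after their values were seen and given without a test, showed a split inside the intermediate filaments. The ratio of Nefh to Nefl lay between 0.0594 and 0.0613 in the WT libraries and at 0.0859, 0.0860 and 0.0687 in the CTGF-/- libraries, or 0.0602 ± 0.00104 and 0.0802 ± 0.00999 (SD, n = 3 each), and the groups did not overlap. The ratio of Nefh to Nefm did not overlap either, with 0.177 ± 0.0108 in WT and 0.227 ± 0.0298 in CTGF-/- (SD, n = 3 each). Neurofilament heavy chain is known to appear later in axon maturation than the light and medium chains. The Nefh transcript has a GC content of 58.4%, that of Nefl 48.8% and that of Nefm 53.4%. The part of base composition in these ratios was not tested. The ratio of Ina to Nefl overlapped between the groups, with 0.633 ± 0.121 and 0.731 ± 0.0510 (SD, n = 3 each).

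The ratio of Sncg to Nefl, both abundant ganglion cell genes, lay between 0.926 and 1.07 in the WT libraries. It lay between 1.26 and 1.63 in the CTGF-/- libraries, again without overlap, and was highest in CTGF-/- replicate 2. The Sncg transcript has a GC content of 56.6% and that of Nefl 48.8%, and the part of base composition was not tested here either. The ratio of Pou4f1 to Pou4f2 overlapped, with 2.44 ± 0.220 in WT and 2.13 ± 0.335 in CTGF-/- (SD, n = 3 each), as did that of Rbpms2 to Rbpms, with 1.23 ± 0.0498 and 1.46 ± 0.305 (SD, n = 3 each). In all 10 ratios were computed. Those without overlap share Nefl or Nefh, so they are not separate results, and no share over other gene pairs was computed.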
